A study of Homo sapiens with 12 samples.

Results

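A group of 7 gene loci linked to fetal growth, stem cell identity and Polycomb repression was followed across the chromatin accessibility maps of a rhabdoid tumour cell line: SOX2, SALL4, LIN28B, HMGA2, IGF2BP1, IGF2BP3 and EZH2. A locus was the gene's interval in GRCh37 with 25 kb added on each side, and its members were the open chromatin peaks that overlapped it by position alone. Peaks of the 12 libraries were merged where they overlapped, which gave 187088 regions in the genome, and 155 of them, made from 624 peaks, lay in the 7 loci. SOX2 held 3 regions, SALL4 20, LIN28B 11, HMGA2 40, IGF2BP1 22, IGF2BP3 46 and EZH2 13.

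The cells were G401, an established rhabdoid tumour line in which both copies of SMARCB1 are lost (SMARCB1 -/-), so all groups shared that genotype, as well as doxycycline for 24 h. Doxycycline induced either GFP, the control protein, or SMARCB1, and the cells received DMSO, the solvent, or dBRD9-A, a compound that leads BRD9 to degradation. This gave 4 groups of 3 ATAC-seq libraries: GFP with DMSO, GFP with dBRD9-A, SMARCB1 with DMSO and SMARCB1 with dBRD9-A. ATAC-seq inserts sequencing adapters into accessible DNA, and the lists used here came from the fragments labelled nucleosome free. The labels do not say whether the 3 libraries of a group came from separate cultures, so a p-value here measures the spread between libraries, which may be technical. All libraries came from 1 cell line, and no RNA was measured, so the cell type could not be checked against marker genes and nothing here is a level of expression.

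SMARCB1 is a core part of the SWI/SNF complexes, which remodel chromatin by moving nucleosomes and keep enhancers open, and its loss defines rhabdoid tumours. BRD9 belongs to a form of the complex that assembles without SMARCB1. EZH2 is the catalytic subunit of Polycomb repressive complex 2, which methylates histone H3 at lysine 27, and SWI/SNF and Polycomb are known to oppose each other. SOX2 and SALL4 are transcription factors of pluripotent and fetal cells. LIN28B blocks the maturation of let-7 microRNAs, and HMGA2, IGF2BP1 and IGF2BP3 are known let-7 targets. HMGA2 is an architectural chromatin protein, and the IGF2BP proteins bind mRNAs. Most of these genes are active in the embryo, low in most adult tissues and active again in many tumours.

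Promoter sequences are shown for the genes at whose interval starts the accessibility data divided. Every library had a peak over the start of EZH2 and of IGF2BP3, and no library had one at the start of the SOX2 or the LIN28B interval. LIN28B has 2 starts in RefSeq, and only the start of its interval was examined. A region 15.4 kb upstream of it had a peak in 10 libraries and may lie near the other start. Each runs 5′ to 3′ on the gene's strand from 250 bases before to 50 after a start, from RefSeq on GRCh38.p14, which is not the build of the peaks. Capitals mark every match, on either strand, to a set of promoter motifs. The GC box was searched as GGGCGG. The CCAAT box was searched by the 5 letters of its name. The motifs of E2F, the cell cycle factors, were searched as TTTGGCGC and separately as TTTCCCGC. The E-box, a site of MYC family proteins, was searched as CACGTG. The letters TGANTCA stood for AP-1 sites. The letters GGAATG stood for sites of TEAD factors.
EZH2, chr7:148884242-148884541, minus strand: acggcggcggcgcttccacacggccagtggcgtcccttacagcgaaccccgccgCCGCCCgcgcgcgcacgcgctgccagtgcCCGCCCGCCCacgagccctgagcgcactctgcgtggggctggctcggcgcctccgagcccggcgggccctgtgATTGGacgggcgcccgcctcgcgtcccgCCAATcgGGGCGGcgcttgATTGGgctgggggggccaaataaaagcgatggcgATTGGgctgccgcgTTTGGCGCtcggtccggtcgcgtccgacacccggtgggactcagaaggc
IGF2BP3, chr7:23470442-23470741, minus strand: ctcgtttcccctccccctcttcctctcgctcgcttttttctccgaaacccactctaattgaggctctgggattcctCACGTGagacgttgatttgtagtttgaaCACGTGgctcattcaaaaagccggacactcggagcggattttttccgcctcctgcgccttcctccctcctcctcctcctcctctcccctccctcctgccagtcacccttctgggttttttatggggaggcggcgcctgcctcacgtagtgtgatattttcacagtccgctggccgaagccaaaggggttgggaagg
SOX2, chr3:181711675-181711974, plus strand: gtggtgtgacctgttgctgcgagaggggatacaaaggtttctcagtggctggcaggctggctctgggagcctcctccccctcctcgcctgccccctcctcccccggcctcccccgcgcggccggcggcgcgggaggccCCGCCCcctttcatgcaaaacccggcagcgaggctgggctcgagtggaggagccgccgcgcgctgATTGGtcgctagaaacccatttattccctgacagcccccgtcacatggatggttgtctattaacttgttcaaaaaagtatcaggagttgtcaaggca
LIN28B, chr6:104940715-104941014, plus strand: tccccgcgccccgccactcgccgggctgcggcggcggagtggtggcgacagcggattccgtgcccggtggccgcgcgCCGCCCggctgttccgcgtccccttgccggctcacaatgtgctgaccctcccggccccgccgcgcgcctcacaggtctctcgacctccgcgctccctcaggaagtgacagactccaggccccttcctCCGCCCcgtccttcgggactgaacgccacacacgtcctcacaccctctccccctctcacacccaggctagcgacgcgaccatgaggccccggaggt
LIN28B, chr6:104956857-104957156, plus strand: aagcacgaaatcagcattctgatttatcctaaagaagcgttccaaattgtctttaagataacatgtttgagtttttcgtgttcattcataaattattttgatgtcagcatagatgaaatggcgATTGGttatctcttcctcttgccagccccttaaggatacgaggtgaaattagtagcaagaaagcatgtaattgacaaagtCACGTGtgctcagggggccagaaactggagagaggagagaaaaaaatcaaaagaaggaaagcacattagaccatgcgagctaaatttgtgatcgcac

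The table held 6 entries for 4 of the 7 genes, with 2 starts each for EZH2 and LIN28B, and SALL4, HMGA2 and IGF2BP1 had no entry. The EZH2 window above held 46 CG dinucleotides, and 2.89% of the 35116 promoters in the table held at least as many, where the median was 14. It also held 4 GC boxes, of which the pair in one capital run overlapped, 4 CCAAT boxes and 1 match to TTTGGCGC, letters found in 0.652% of all promoters, while GC boxes stood in 45% and CCAAT boxes in 34.6%. The other EZH2 window, at chr7:148883436-148883735, held 45 CG dinucleotides and 1 GC box. IGF2BP3 held 17 CG dinucleotides and 2 E-boxes, letters found in 7.26% of promoters, and no GC or CCAAT box. SOX2 held 20 CG dinucleotides, 1 GC box and 1 CCAAT box. The 2 LIN28B starts differed: the upstream window held 37 CG dinucleotides and 2 GC boxes, and the downstream window held 8 CG dinucleotides, 1 CCAAT box and 1 E-box. None of the 6 windows held the AP-1, TEAD or TTTCCCGC letters, which stood in 7.71%, 14% and 1.63% of all promoters. A match is a description of letters, not of a bound site.

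The libraries with SMARCB1 had longer lists, 71169 to 96572 peaks against 33428 to 50089 with GFP. Read totals are not in the lists, and the lowest background pileup in each list stood in for depth: it was 0.0827 ± 0.0217 fragments (SD, n = 6) with SMARCB1 and 0.0517 ± 0.0171 (SD, n = 6) with GFP. Depth and induction therefore moved together on average, and a weak region absent from a GFP list may have been below its detection limit. The ranges overlapped, 0.0487 to 0.111 with SMARCB1 and 0.0383 to 0.0784 with GFP. SMARCB1 dBRD9-A replicate 2, at 0.0487, had 71169 peaks, and GFP dBRD9-A replicate 3, at 0.0784, had 50089. The median summit pileup, the number of fragments stacked at a peak's summit, over the 18114 regions with a peak in every list was 18.5 ± 3.21 (SD, n = 6) with SMARCB1 and 17.3 ± 4.84 (SD, n = 6) with GFP.

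With SMARCB1, more peaks were called at 4 of the 7 loci, HMGA2, IGF2BP1, IGF2BP3 and EZH2, and the difference at SOX2, SALL4 and LIN28B did not pass the test. Of genome windows of the 7 lengths, 40% to 62.4% passed the same test with more peaks. Summed over the 7 loci, the GFP libraries held 28 to 50 peaks and the SMARCB1 libraries 57 to 74, a ratio of means of 1.9. The ranges did not overlap. Neither did those of all peaks in the genome, 33428 to 50089 with GFP and 71169 to 96572 with SMARCB1, with a ratio of 2.18. Counts per locus were compared by a two-sided exact permutation test of the induction labels within treatment, with 400 arrangements and a smallest possible p of 0.005, and Benjamini-Hochberg adjustment over all genome windows of the same length with a peak in at least 2 libraries.

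**Figure D1:**
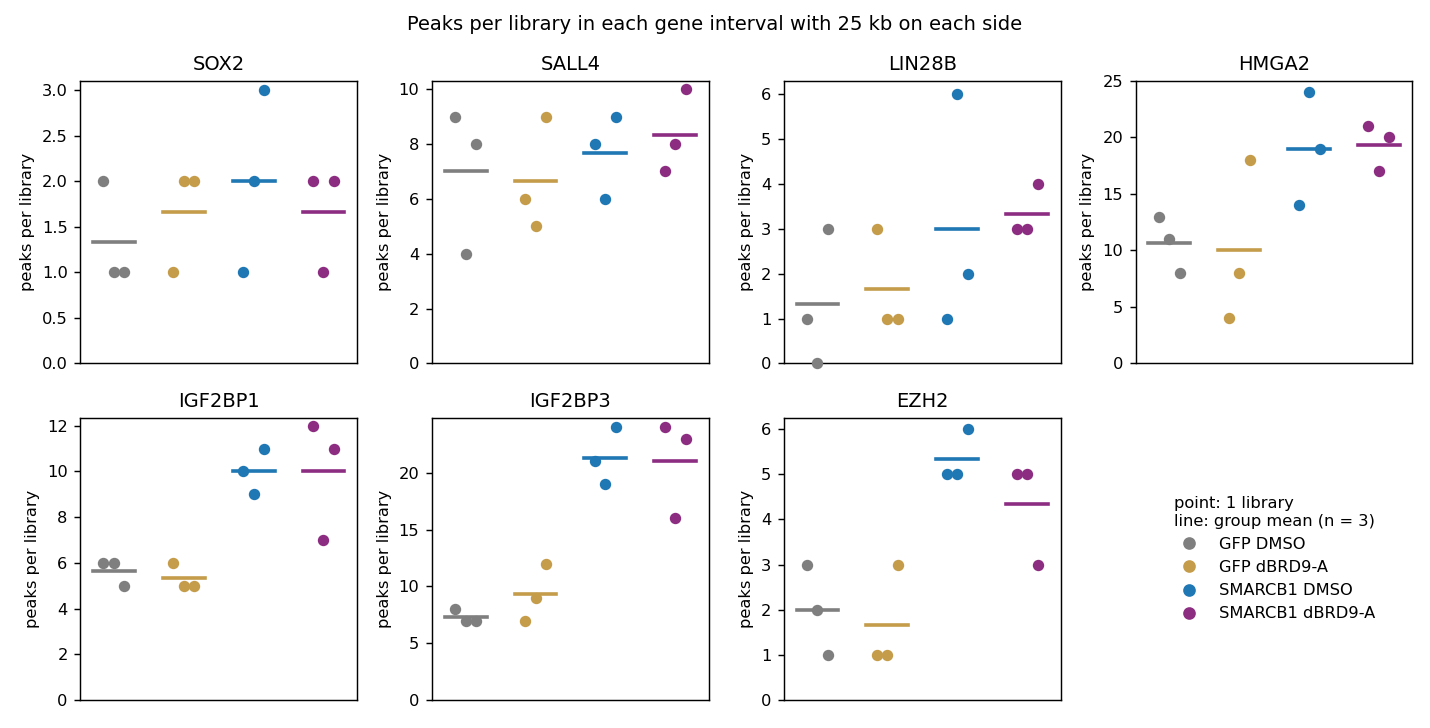
Number of peaks in each library (y axis) for the 7 loci, with 1 point per library and a line at each group's mean (n = 3). At IGF2BP1 and IGF2BP3 all 6 SMARCB1 libraries lie above all 6 GFP libraries, and at SOX2, SALL4 and LIN28B the groups overlap.

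IGF2BP3, the longest interval at 210.3 kb, showed the largest difference of the 7 loci in peak number. The GFP libraries held 8, 7 and 7 peaks with DMSO and 7, 9 and 12 with dBRD9-A, and the SMARCB1 libraries held 21, 19 and 24 with DMSO and 24, 16 and 23 with dBRD9-A. The groups did not overlap, and the difference was 12.8 peaks (exact permutation p = 0.005, adjusted p = 0.0113). Of windows of that length, 62.4% passed the same test with more peaks. The ratio of means was 2.54 at IGF2BP3, 2.64 at EZH2 and 2.18 for all peaks. IGF2BP1 held 5 or 6 peaks in each GFP library and 10, 9, 11, 12, 7 and 11 in the SMARCB1 libraries, a difference of 4.5 without overlap (exact permutation p = 0.005, adjusted p = 0.0146), beside 50.9% of windows of its length. HMGA2 held 13, 11, 8, 4, 8 and 18 peaks with GFP and 14, 24, 19, 21, 17 and 20 with SMARCB1. The ranges overlapped through GFP dBRD9-A replicate 3, and the difference of 8.83 passed (exact permutation p = 0.015, adjusted p = 0.0275), as did 61.2% of windows. EZH2 held 3, 2, 1, 1, 1 and 3 peaks with GFP and 5, 5, 6, 5, 5 and 3 with SMARCB1, a difference of 3 (exact permutation p = 0.01, adjusted p = 0.0231), beside 53.4% of windows. At each of these 4 lengths, most windows of the genome also passed with more peaks.

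At the other 3 loci the groups overlapped. SALL4 had 4 to 9 peaks with GFP and 6 to 10 with SMARCB1, a difference of 1.17 (exact permutation p = 0.385, adjusted p = 0.533), where 43.5% of windows passed. LIN28B had 0 to 3 peaks with GFP and 1 to 6 with SMARCB1, a difference of 1.67 (exact permutation p = 0.135, adjusted p = 0.187), where 60% of windows passed. SOX2 had 1 or 2 peaks with GFP and 1 to 3 with SMARCB1, a difference of 0.333 (exact permutation p = 0.7, adjusted p = 0.838), where 40% passed. When pileups were scaled to the background of the shallowest list, which left 33233 to 40007 peaks with GFP and 58827 to 77551 with SMARCB1, HMGA2 and IGF2BP3 still passed, with differences of 7 (adjusted p = 0.0144) and 10 (adjusted p = 0.0139), and IGF2BP1 and EZH2 did not, with 2 (adjusted p = 0.0691) and 1.33 (adjusted p = 0.214). With every list shortened to the 33428 strongest peaks, only IGF2BP3 passed with more peaks, at 4.33 (adjusted p = 0.0326), and SALL4 passed with fewer, at −3.5 (adjusted p = 0.043). This cut took more peaks from the SMARCB1 lists than from the GFP lists. The share of genome windows that passed under the scaled or the shortened lists is not given here. These results therefore cannot be set against the genome.

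Region by region, 10 of the 71 member regions that could be tested were gained with SMARCB1 and 0 were lost. A region was tested when 2 to 10 libraries had a peak in it, with the same exact test on presence, adjusted over 88398 regions. The 10 gained regions make 14.1% of those tested, where 15.4% of all tested regions were gained. Lost regions made 0.131% of all tested. Gained here means a peak in all 6 SMARCB1 libraries and in none of the 6 GFP libraries, the arrangement that gave the smallest adjusted p, 0.0321, among the members. IGF2BP3 held 4 of them among 19 tested regions, HMGA2 3 among 21, IGF2BP1 2 among 9 and SALL4 1 among 9. SOX2, LIN28B and EZH2 held none, among 2, 6 and 5 tested regions. All 10 lay inside the gene and outside 1 kb of its start. At an unadjusted exact p under 0.05 there were 16 higher (22.5% of those tested) and 0 lower, beside 25.9% and 0.482% of all tested regions. Which regions were called, and how many, depended on the peaks used. With lists of equal length 2 were gained, IGF2BP3 +113 kb of the 10 above and IGF2BP3 +121 kb. When a region had to be covered to 50%, 0 were gained. The share of all tested regions gained is not given here for these or the following settings. Their counts therefore cannot be set against the genome. With peaks of a −log10 q of at least 5, 10 were again gained, of which 5 were among the 10 above. The 5 not called again, each with 4 or 5 SMARCB1 libraries left, were SALL4 +4.82 kb, HMGA2 +124 kb, IGF2BP1 +23.7 kb, and IGF2BP3 +4.67 and +136 kb. The 5 called in their place were HMGA2 +52.4 and +67.5 kb, and IGF2BP3 +121, +142 and +172 kb. With pileups scaled to the background of the shallowest list, 8 of the 10 were gained again, and the exceptions were SALL4 +4.82 kb and IGF2BP1 +23.7 kb (5 of 6 SMARCB1 libraries each, adjusted p = 0.078 by the exact permutation test). The 2 called in their place were IGF2BP3 +121 and +142 kb.

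**Figure D2:**
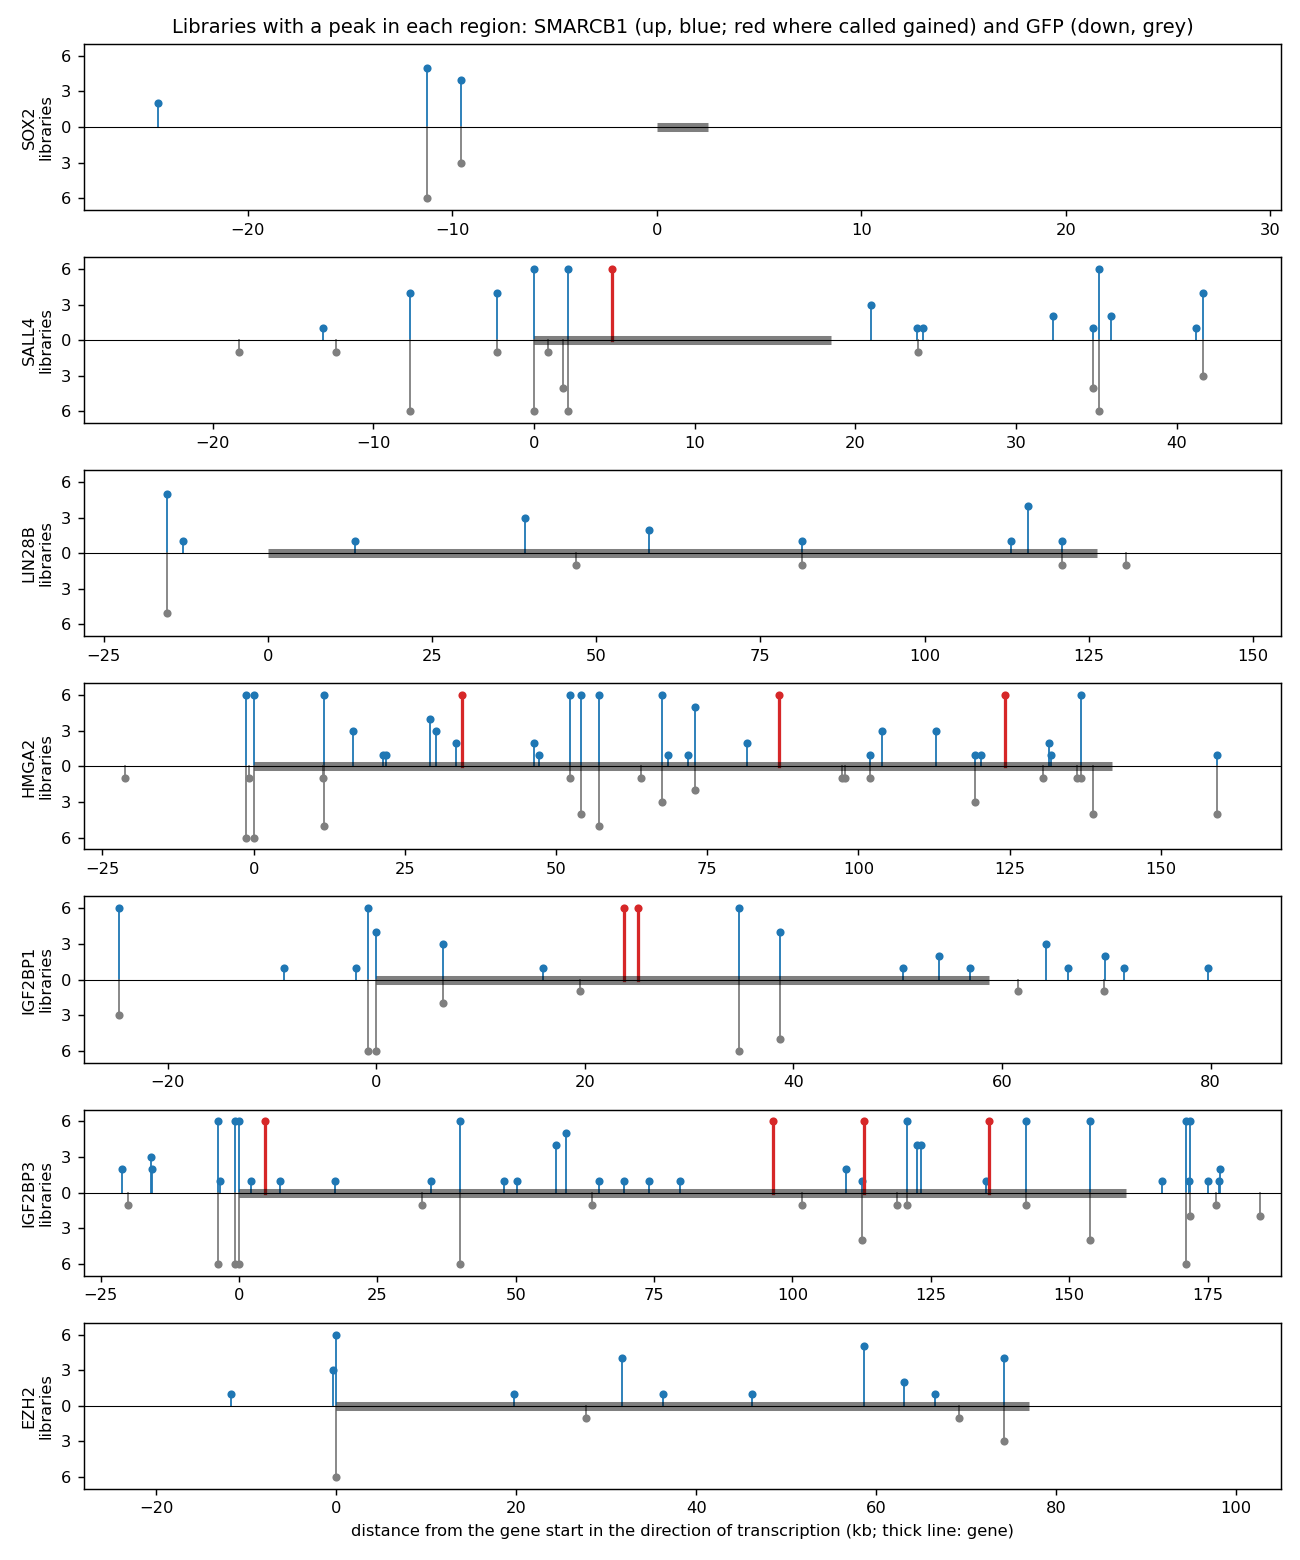
Each region of the 7 loci at its distance from the gene start in kb (x axis, in the direction of transcription; 0 where it covers the start), with the number of SMARCB1 libraries that had a peak drawn upward and of GFP libraries downward. The 10 red lines mark the regions called gained, which have 6 SMARCB1 libraries and no GFP library.

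Of the 155 regions, 13 (8.39%) were found in every library and 68 (43.9%) in a single one. Over the whole genome these shares were 9.68% and 41%. In 85 regions (54.8%) peaks came from SMARCB1 libraries alone, beside 62.3% of all regions, and in 28 (18.1%) from GFP libraries alone, beside 11.5%. With at least 2 libraries asked for, these were 42 (27.1%, beside 30.9%) and 3 (1.94%, beside 1.93%). The share of SMARCB1-only regions at these loci was thus below that in the genome, a difference that was not tested. By place, 10 regions lay within 1 kb of a gene start, 95 further inside a gene, 22 upstream and 28 downstream. Some of this DNA holds neighbouring genes as well, by their names in the GRCh38.p14 table: SOX2-OT overlaps SOX2, HMGA2-AS1 and RPSAP52 overlap HMGA2, LIN28B-AS1 overlaps LIN28B, MALSU1 overlaps IGF2BP3, and ATP9A and CUL1 lie beside SALL4 and EZH2. A region was not assigned to one gene over another.

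At EZH2, the gene start was open in every library, and its signal relative to other shared regions differed between SMARCB1 and GFP by less than the spread between libraries. The region chr7:148581311-148581660 had summit pileups of 31, 15 and 16 fragments in GFP DMSO, 15, 12 and 26 in GFP dBRD9-A, 16, 18 and 22 in SMARCB1 DMSO, and 21, 10 and 28 in SMARCB1 dBRD9-A. Relative to each library's median over shared regions, the pileup was 1.09 ± 0.182 (SD, n = 6) with GFP and 1.02 ± 0.198 (SD, n = 6) with SMARCB1. On the log2 scale the difference was −0.10 (SE 0.18), with an adjusted p of 0.778 by limma over the 18114 shared regions. Scaled to the background pileup in place of that median, it was −0.67 (SE 0.19, limma adjusted p = 0.00289), in a comparison where most shared regions were lower. A second region at the start, chr7:148581814-148581919 at −0.373 kb, had peaks in 3 SMARCB1 libraries and no GFP library, with pileups of 5, 7 and 9. The exact permutation p was 0.2 (adjusted p = 0.372). Some weak regions inside the gene had peaks in SMARCB1 lists alone, as did 62.3% of all regions in the genome. Others did not: +74.2 kb had a peak in 3 GFP and 4 SMARCB1 libraries, and +27.7 and +69.2 kb each in 1 GFP library alone. At +58.7 kb (chr7:148522589-148522744) 5 SMARCB1 libraries had a peak, with pileups of 2 to 9, and no GFP library did (exact permutation p = 0.02, adjusted p = 0.0757). At +31.8 kb (chr7:148549397-148549651) 4 SMARCB1 libraries and no GFP library had one, with pileups of 3 to 5. These regions, like others in the text that are neither at a gene start nor called, were singled out after their values were seen.

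SOX2, which encodes a pluripotency factor, had no peak over the gene or within 1 kb of its start in any library. Its 3 regions all lay upstream and were weak, with a highest pileup of 8 fragments. The region at −11.2 kb (chr3:181418352-181418497) had 5, 4, 3, 5, 6 and 4 fragments in the GFP libraries, and 8, 5, 7, 3 and 7 in the 5 SMARCB1 libraries with a peak, SMARCB1 DMSO replicate 1 having none. The region at −9.59 kb (chr3:181419977-181420122) had peaks in 3 GFP and 4 SMARCB1 libraries, with pileups of 3 to 7. Presence in these regions did not separate the groups.

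SALL4, a zinc finger factor that works with the pluripotency network, was open at its start in all 12 libraries. The region chr20:50419044-50419305 had 19, 15 and 9 fragments in GFP DMSO, 10, 10 and 18 in GFP dBRD9-A, 13, 16 and 19 in SMARCB1 DMSO, and 14, 9 and 25 in SMARCB1 dBRD9-A. The groups overlapped, and the log2 difference in relative pileup was 0.12 (SE 0.21, limma adjusted p = 0.769). A further region at +0.878 kb (chr20:50418098-50418181) had a peak in GFP DMSO replicate 3 alone. Past the start lay 3 close regions. At +2.11 kb (chr20:50416805-50416945) all 12 libraries had a peak, with a log2 difference of −0.41 (SE 0.19, limma adjusted p = 0.164). At +1.81 kb (chr20:50417145-50417248) 4 GFP libraries had one, GFP DMSO replicate 1 with 17 fragments and the GFP dBRD9-A replicates with 13, 10 and 12, and no SMARCB1 library did (exact permutation p = 0.05, adjusted p = 0.166). At +4.82 kb (chr20:50413901-50414236) all 6 SMARCB1 libraries had a peak, with 10, 10, 6, 13, 8 and 11 fragments, and no GFP library did. It was the 1 gained region of SALL4, and, as given above, it was not called with the stricter peaks or the scaled pileups.

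LIN28B, the RNA-binding protein that holds back let-7, had few and weak regions for its length. It had 6.24 regions per 100 kb, where HMGA2 had 20.9, IGF2BP1 20.2, IGF2BP3 21.9, EZH2 10.2, SALL4 29.2 and SOX2 5.71. No library had a peak within 1 kb of the start of the interval, and the highest pileup in the locus was 6. One region was found in most libraries, at −15.4 kb (chr6:105389329-105389516). It had 6, 3, 4, 3 and 5 fragments in 5 GFP libraries and 4 fragments in each of 5 SMARCB1 libraries, and GFP DMSO replicate 2 and SMARCB1 dBRD9-A replicate 3 lacked it. Presence was 5 of 6 in both groups (exact permutation p = 1). In RefSeq the 2 LIN28B starts lie 16.1 kb apart in GRCh38.p14, close to the 15.4 kb between this region and the interval's start. If the interval begins at the downstream start, this region lies near the upstream one. The builds were not mapped onto each other, so whether it covers or adjoins that start in GRCh37 was not determined here. At +116 kb (chr6:105520708-105520873) 4 SMARCB1 libraries and no GFP library had a peak, with pileups of 2 to 6 (exact permutation p = 0.05, adjusted p = 0.166).

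IGF2BP1, an mRNA-binding protein that stabilises its targets, showed lower signal at its start and gained regions inside the gene. Upstream of the start, the region chr17:47073375-47073961 (−0.813 kb) had 34, 17 and 20 fragments in GFP DMSO, 10, 12 and 25 in GFP dBRD9-A, 9, 7 and 13 in SMARCB1 DMSO, and 11, 4 and 17 in SMARCB1 dBRD9-A. Relative to each library's median over shared regions, the pileup was 1.11 ± 0.302 (SD, n = 6) with GFP and 0.533 ± 0.189 (SD, n = 6) with SMARCB1. The DMSO groups did not overlap, and the dBRD9-A groups did. The log2 difference was −1.09 (SE 0.23, limma adjusted p = 0.000819), 2.13-fold lower with SMARCB1, and it was the 1 shared member region of 13 that passed. Of all 18114 shared regions, 5.21% passed as lower and 7.82% as higher. Within DMSO the log2 difference was −1.39 (SE 0.33, limma adjusted p = 0.00595) and within dBRD9-A −0.79 (SE 0.33, limma adjusted p = 0.177). The difference between these was not past the threshold (log2 0.60, SE 0.46, limma adjusted p = 0.998). With the fold enrichment of the lists in place of the pileup, the log2 difference was −0.57 (limma adjusted p = 0.0676).

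The region over the IGF2BP1 start itself, chr17:47074360-47074807, had 19, 13, 17, 16, 13 and 16 fragments in the GFP libraries. In the SMARCB1 libraries it had 7, 7 and 11 with DMSO and 13 in dBRD9-A replicate 1, and no peak in dBRD9-A replicates 2 and 3. Presence in 6 of 6 against 4 of 6 libraries did not pass (exact permutation p = 0.4, adjusted p = 0.619), and the pileup was not tested because lists without a peak give none. Inside the gene, 2 regions were gained, of which the one at +25.1 kb was called again with the stricter peaks and the scaled pileups. With lists of equal length it had a peak in 5 SMARCB1 libraries and was not called (exact permutation adjusted p = 0.0853). The region at +25.1 kb (chr17:47099871-47100182) had 26, 18 and 25 fragments in SMARCB1 DMSO and 19, 7 and 37 in SMARCB1 dBRD9-A, values like those of the start region in GFP libraries. The region at +23.7 kb (chr17:47098483-47098697) had 5, 7, 14, 12, 9 and 22. At the edge of the upstream flank, at −24.7 kb (chr17:47049773-47050069), 3 GFP libraries had 9, 6 and 5 fragments and the 6 SMARCB1 libraries had 28, 14, 34, 24, 17 and 34. Its presence did not pass (exact permutation p = 0.2, adjusted p = 0.372). The pileups did not overlap, but they are not scaled for depth, and the share of all regions with such a separation is not given here. Pileups were tested only where all 12 lists had a peak, so this difference was not tested.

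**Figure D3:**
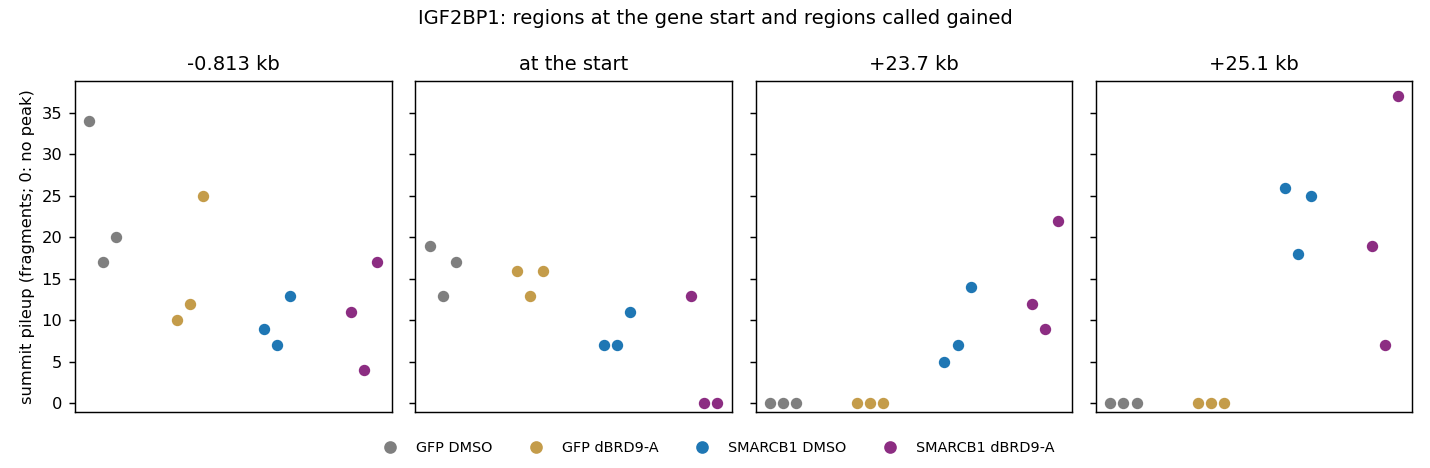
Summit pileup in fragments (y axis; 0 where a library had no peak) at 4 IGF2BP1 regions, with 1 point per library and colours for the 4 groups. GFP libraries have 10 to 34 fragments at −0.813 kb and 13 to 19 at the start, and no peak at +23.7 and +25.1 kb, where SMARCB1 libraries have 5 to 37.

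IGF2BP3, the relative of IGF2BP1, kept an open start in every library. It held the most gained regions in number, 4 of 19 tested, and also had the most regions of the 7 loci, 46. Over the start, chr7:23509996-23510472 had 32, 23, 19, 20, 20 and 30 fragments with GFP and 22, 25, 24, 29, 19 and 32 with SMARCB1. The groups overlapped, with a log2 difference of −0.04 (SE 0.15, limma adjusted p = 0.9). The adjoining region at −0.704 kb (chr7:23510790-23511034) had 19 to 39 fragments with GFP and 16 to 29 with SMARCB1, a log2 difference of −0.22 (SE 0.15, limma adjusted p = 0.363). The strongest of all member regions lay further upstream at −3.79 kb (chr7:23513877-23514422), with 38 to 64 fragments in GFP libraries and 19 to 54 in SMARCB1 libraries. Its log2 difference was −0.33 (SE 0.13, limma adjusted p = 0.105). IGF2BP1 and IGF2BP3 thus differed at their starts in these values, and that difference between the genes was not tested.

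The gained regions of IGF2BP3 ran from close to the start to near the far end of the gene. At +4.67 kb (chr7:23505038-23505419) the SMARCB1 libraries had 23, 11 and 17 fragments with DMSO and 21, 7 and 22 with dBRD9-A. At +113 kb (chr7:23396952-23397227) they had 18, 14, 16, 14, 13 and 18. At +136 kb (chr7:23374137-23374544) they had 15, 8, 14, 9, 5 and 12. The GFP lists had no peak in any of these. The fourth, at +96.4 kb (chr7:23413384-23413642), had 7 to 14 fragments. Among regions that just missed the call, +121 kb (chr7:23389065-23389413) had 21, 21, 33, 21, 17 and 24 fragments with SMARCB1 and 3 fragments in GFP dBRD9-A replicate 3 alone (exact permutation p = 0.02, adjusted p = 0.0757). It was called gained at a −log10 q of at least 5 and with scaled pileups (exact permutation adjusted p = 0.033 each). The same test called it with lists of equal length (adjusted p = 0.0437). At +154 kb (chr7:23355973-23356349) 4 GFP libraries had 3 to 10 fragments and the SMARCB1 libraries 20 to 35. Its presence did not pass (exact permutation adjusted p = 0.619), and its pileups, not scaled for depth, were not tested.

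HMGA2, which bends DNA through its AT-hooks, was open at and just before its start in all libraries, and its gained regions lay inside the gene. Over the start, chr12:66217705-66218603 had 32, 18 and 20 fragments in GFP DMSO, 17, 24 and 14 in GFP dBRD9-A, 17, 20 and 13 in SMARCB1 DMSO, and 18, 16 and 13 in SMARCB1 dBRD9-A. The groups overlapped, and the log2 difference was −0.45 (SE 0.21, limma adjusted p = 0.167). Leaving out GFP dBRD9-A replicate 3, its lowest GFP library relative to the median, brought this region past the threshold. At −1.31 kb (chr12:66216671-66216929) the pileups were 22 to 41 with GFP and 25 to 42 with SMARCB1, a log2 difference of −0.13 (SE 0.14, limma adjusted p = 0.621). Another region near the start, at −0.811 kb (chr12:66217211-66217429), had a peak in GFP DMSO replicate 1 alone, with 18 fragments.

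The 3 gained regions of HMGA2 were weaker than those of IGF2BP1 and IGF2BP3 with the highest pileups. In the SMARCB1 libraries, +34.5 kb (chr12:66252770-66252910) had 10, 7, 7, 7, 11 and 13 fragments. At +86.9 kb (chr12:66305168-66305342) they had 6, 13, 6, 9, 10 and 11, and at +124 kb (chr12:66342435-66342775) 5, 7, 13, 7, 6 and 10. Stronger regions nearby were in GFP lists too and so were not called with the deposited lists. With peaks of a −log10 q of at least 5, those at +52.4 and +67.5 kb were called gained (exact permutation adjusted p = 0.033 each). At +52.4 kb (chr12:66270601-66271411) GFP DMSO replicate 1 had 8 fragments and the SMARCB1 libraries 19, 14, 22, 16, 12 and 22 (exact permutation p = 0.02, adjusted p = 0.0757). At +67.5 kb (chr12:66285768-66286179) 3 GFP libraries had 4 or 5 fragments and the SMARCB1 libraries 12, 17, 25, 35, 10 and 36. In the other direction, +139 kb (chr12:66356940-66357119) had 4 to 10 fragments in 4 GFP libraries and no peak in a SMARCB1 library (exact permutation p = 0.08, adjusted p = 0.21).

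**Figure D4:**
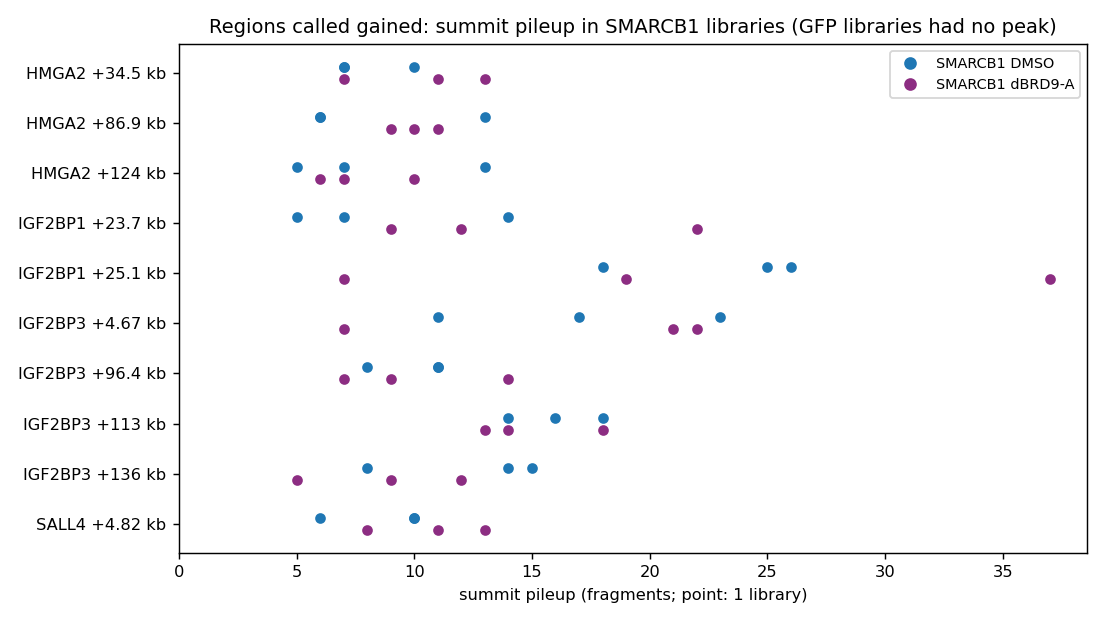
Summit pileup in fragments (x axis) of the 6 SMARCB1 libraries at the 10 member regions called gained, with 1 point per library; the GFP libraries had no peak there. The region at +25.1 kb of IGF2BP1 reaches 37 fragments, and the 3 HMGA2 regions stay between 5 and 13.

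The 13 member regions present in every list had a median log2 difference of −0.13 with SMARCB1, and 11 of 13 were below 0. Over all shared regions the median was −0.08 and 60% were below 0. The members ranged from −1.09 at IGF2BP1 to 0.12 at SALL4. These values are relative to each library's median over shared regions. Divided by the background pileup in place of that median, the median difference of all shared regions moved to −0.65 and of the members to −0.70, and the split of calls over all shared regions moved from 1416 higher and 944 lower to 490 higher and 12254 lower. Under that scaling 12 of the 13 members passed as lower, among them the start regions of EZH2, HMGA2 (log2 −1.02, limma adjusted p = 0.00115) and IGF2BP3 (log2 −0.61, limma adjusted p = 0.00346), and the SALL4 start was the exception (log2 −0.45, limma adjusted p = 0.0661). The IGF2BP1 region passed as lower under both of these scalings. With the fold in place of the pileup it did not pass (log2 −0.57, limma adjusted p = 0.0676).

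**Figure D5:**
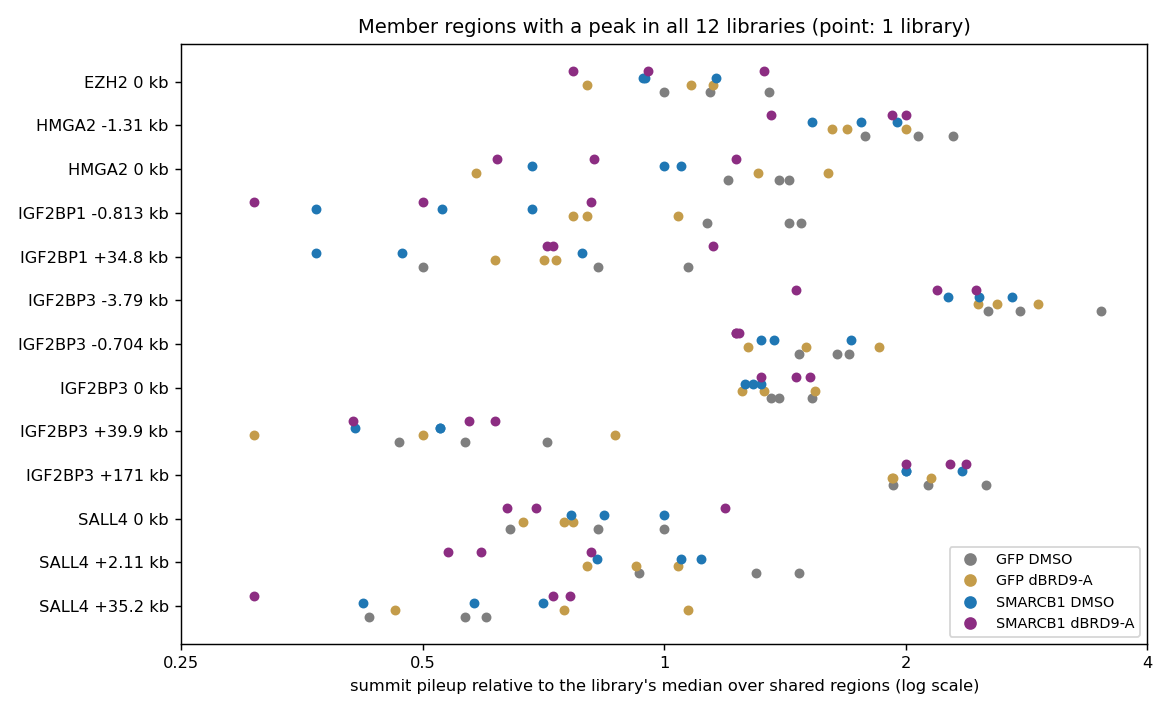
Summit pileup relative to the library's median over shared regions (x axis, log scale) for the 13 member regions with a peak in all 12 libraries, named by gene and distance from the start. At IGF2BP1 −0.813 kb the GFP libraries lie between 0.769 and 1.48 and the SMARCB1 libraries between 0.308 and 0.81, so that they overlap only between 0.769 and 0.81; in the other rows the overlap is wider.

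No member region and no locus passed a test of dBRD9-A against DMSO. In the exact permutation test of presence with treatment permuted within induction, 0 of 71 member regions passed, beside 0% of all tested regions, and at an unadjusted p under 0.05 there were 0 members, beside 0.0645% of all regions. The lowest p among the members was 0.1 (adjusted p = 1). In peak number, the differences between dBRD9-A and DMSO were 0 at SOX2, 0.167 at SALL4, 0.333 at LIN28B, −0.167 at HMGA2 and IGF2BP1, 0.833 at IGF2BP3 and −0.667 at EZH2. None of the 7 passed, with an adjusted p of 1 for each, and 0% of windows of these lengths did. At the shared regions limma called 0 of 13 members and 0.0607% of all shared regions. The members' log2 differences ran from −0.52 to 0.28, the lowest at SALL4 +2.11 kb (SE 0.19, limma adjusted p = 0.555), the 1 member at an unadjusted p under 0.05. For the interaction of SMARCB1 and dBRD9-A the lowest adjusted p among the members was 0.998 by limma, with 0 members at an unadjusted p under 0.05.

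The regions present in all 3 SMARCB1 libraries and none of the 3 GFP libraries were counted within each treatment. With DMSO there were 15 of 155, or 9.68%, beside 11.3% of all regions: 8 at IGF2BP3, 4 at HMGA2, 2 at IGF2BP1 and 1 at SALL4. With dBRD9-A there were 16, or 10.3%, beside 10.6% of all regions: 5 at IGF2BP3, 4 at HMGA2, 3 at IGF2BP1, 2 at SALL4, and 1 each at LIN28B and EZH2. The 10 gained regions are those in both counts. In the opposite direction there were 0 members with DMSO, where 0.323% of all regions were lost, and 1 with dBRD9-A, the SALL4 region at +1.81 kb, where 0.302% were lost. A region of the IGF2BP1 downstream flank, at +64.2 kb (chr17:47138969-47139314), had 4, 4 and 6 fragments in the 3 SMARCB1 dBRD9-A libraries and a peak in no other (exact permutation p = 0.1 for dBRD9-A).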

How the data were processed

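ATAC-seq peak lists of 12 libraries were used, 3 in each of 4 groups named from the labels. Per the submitters' processing notes, which give no roles, the tools were BWA 0.7.12-r1039, SAMtools 1.2, bedtools 2.24.0, MACS2 2.1.1.20160309, DiffBind and DESeq2, and the build was hg19. The lists were called per library. The deposited fold of each peak (a ratio, from the authors' peak caller) and its deposited −log10 p and −log10 q were read; the integer score in the deposited lists was not used. The nature of the authors' filter is not given in the sources used here.

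The summit pileup and background were recovered from fold and p with a pseudocount of 1. All whole pileups were tried, 100% of peaks matched within 0.001, and 1.9% had a second candidate (5 of 624 member peaks). Peaks overlapping by at least 1 bp were merged. Presence was tested by exact permutation (400 arrangements) and relative log2 pileup by limma 3.58.1 in R 4.3.3, with Benjamini-Hochberg adjustment over all regions and a threshold of 0.05. Both were tested on simulated data. The 7 loci and lists were chosen with earlier results of these data known. Regions were named by rule: those within 1 kb of a gene start, lost regions, up to 3 gained per locus by relative pileup, and shared regions that passed limma; others are stated as chosen after their values were seen. A list of related genes (among them NANOG, LIN28A, EED and SUZ12) was not analysed here, as no GRCh37 annotation was used.

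Alternatives were lists cut to one length (33428 peaks), only peaks whose −log10 q was 5 or more, scaling to a background of 0.0383 at a −log10 p of 4.02, presence by 50% cover, windows of 100 bp around summits, flanks of 0 and 50 kb, covered bases, other scalings, a replicate block and each library left out. Replicate numbers were not taken to pair libraries in the main tests, because the labels do not say what the numbers mark. Correlations of same-numbered deviations ran from 0.048 to 0.227, with 10 of 18 over 0.1. Those of the 36 other pairs ran from −0.171 to 0.017. Same-numbered libraries were thus more alike, and the p-values of the main tests do not take this into account. Results with replicate number as a block are given at the end.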

Additional observations from a re-analysis of the deposited data

How the results depend on the processing

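The count of 10 gained member regions was 10 at a −log10 q of at least 5 (5 of the 10 and 5 others), 10 with pileups scaled to one background (8 of the 10 and 2 others), 2 with lists of equal length (1 of the 10 and 1 other) and 0 when a region had to be covered to 50%. The counts within treatment, 15 and 16, were 13 and 11 with the 50% cover, 4 and 4 with lists of equal length and 25 and 26 when 2 of 3 libraries sufficed. Of the 4 loci with more peaks, 2 passed at a −log10 q of at least 5, 1 with lists of equal length and 2 with pileups scaled to one background, which matches the background but not the number of peaks. The peak difference turned negative with lists of equal length at SOX2 (−0.833), SALL4 (−3.5), LIN28B (−1) and IGF2BP1 (−1.5), and at SALL4 also at a −log10 q of at least 5 (−0.167) and with no flank (−0.5). The 1 changed shared region became 12 regions with scaling to the background pileup, 0 with the fold, 0 at a −log10 q of at least 5 (where it was not tested), 0 with no flank and 3 with a flank of 50 kb. The shares of all regions gained under these settings are not given here, so the counts of gained regions cannot be set against the genome. The causes were not tested.

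With single libraries left out, 10 to 13 regions were gained, 15 to 19 and 16 to 21 within treatment, 4 loci passed each time, and 1 or 2 shared regions passed, the 2 without GFP dBRD9-A replicate 3, when HMGA2's start region joined. The IGF2BP1 log2 difference ran from −1.26 to −0.91. The counts of regions and loci that differed between dBRD9-A and DMSO were 0 in every alternative run. With replicate number as a block, 0 regions were gained, 0 loci passed and 2 shared regions passed, the second at IGF2BP3 −3.79 kb; the block's smallest possible exact permutation p is 0.0312, and at the loci the lowest adjusted p was 0.058. Each of the 12 libraries correlated best with its own number, a hint from the data and not from the design; the running numbers that open the sample titles are consecutive among libraries of the same number, with no statement of what they mark. No genome window of the 7 lengths passed with the block either. Depth limits the weak regions: a pileup of 2 fragments was the lowest in each list.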
